A study of Mus musculus with 4 samples.

Results

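Natural killer (NK) cells rich in the transcripts of granzyme B (Gzmb) and perforin (Prf1) were picked out of single-cell RNA profiles of mouse ovarian leukocytes. They were chosen on unique molecular identifier (UMI) counts, each UMI standing for 1 captured transcript. A cell was retained if it carried a single hashtag, at least 500 detected genes and under 10% mitochondrial UMIs, which left 4918 of 6468 barcodes. Of these, 508 held at least 2 UMIs of the NK receptors Ncr1, Klrb1c and Klre1 together, no Cd3d, Cd3e or Cd3g and at most 1 UMI of Cd79a and Ms4a1. A further 51 were set aside with fewer than 2 UMIs of Eomes, Itga2, Klra8 and Klra4, which left 457 Eomes-type NK cells. The 91 cells with the highest share of Ccl3, Ccl4, Xcl1, Ifng, Nr4a3 and Tnfrsf9 were then removed, 20% of the total. The remaining 366 were divided at the median of the summed Gzmb and Prf1 share, and the 183 cells at or above it are described here as the high set, against 183 in the low set.

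The mice were female C57BL/6J animals aged 10 to 12 weeks. 5 had received gonadotropin and 5 saline (labelled untreated), and ovaries were taken 48 hours later. Viable CD45+ cells were sorted, CD45 being the pan-leukocyte surface protein. Cells of the 5 mice of a group carried separate hashtag antibodies and were pooled into 1 droplet library per group, so treatment and library cannot be told apart. The labels give no other genotype or agent. The high set held 44, 7, 17, 37 and 19 cells from gonadotropin mice 1 to 5, 124 in all, and 9, 16, 9, 8 and 17 from untreated mice 1 to 5, 59 in all.

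NK cells kill infected, transformed or stressed cells without prior priming. They release granules in which perforin opens the target membrane and granzymes, a family of serine proteases, enter to trigger death. In the mouse, NK cells arise as Cd27-bearing immature cells and mature towards cells that carry Itgam (CD11b) and Klrg1, and the ovary and uterus also hold tissue NK cells and related innate lymphoid cells.

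Gzmb lies at chr14:56258836-56262334 and Prf1 at chr10:61297751-61304684, both protein-coding genes in the GRCm38.p6 annotation. Their proximal promoters are shown because transcripts of both genes define the cells and rose together in them. RefSeq's table for GRCm38.p6 gave 250 bases before to 50 after a start of each gene: chr14:56262285-56262584 on the minus strand for Gzmb and chr10:61297586-61297885 on the plus strand for Prf1. Capitals mark matches on either strand to a RUNX core (TGTGGT), an AP-1 site (TGANTCA), a cyclic AMP response element core (TGACGT) or an ETS core (GGAAGT).
Gzmb: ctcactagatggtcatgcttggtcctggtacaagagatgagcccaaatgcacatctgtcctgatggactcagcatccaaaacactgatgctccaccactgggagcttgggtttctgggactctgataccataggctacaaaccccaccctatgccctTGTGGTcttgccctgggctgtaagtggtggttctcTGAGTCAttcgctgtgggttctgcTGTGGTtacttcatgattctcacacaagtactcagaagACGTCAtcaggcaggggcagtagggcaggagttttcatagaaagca
Prf1: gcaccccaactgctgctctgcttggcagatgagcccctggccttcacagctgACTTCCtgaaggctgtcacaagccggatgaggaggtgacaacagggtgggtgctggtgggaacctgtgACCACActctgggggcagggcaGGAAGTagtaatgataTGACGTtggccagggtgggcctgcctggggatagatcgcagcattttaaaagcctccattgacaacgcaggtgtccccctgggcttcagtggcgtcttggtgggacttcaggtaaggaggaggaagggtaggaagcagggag
The RUNX core matched 2 times for Gzmb and 1 time for Prf1, and 16.8% of the 32851 windows of this length in the table hold it. The AP-1 site matched once, in Gzmb only, against 7.81% of windows. The cyclic AMP core matched once in each window, and 7.51% of windows hold it. The ETS core matched 2 times in Prf1 and not in Gzmb, against 23.8% of windows. The T-box letters GGTGTGA were in neither window and in 3.98% of all windows. These matches describe letters only and were not tied to binding.

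The split genes themselves are given as description, since they chose the cells. The cut lay between 14.8 UMIs of Gzmb and Prf1 per 10000 UMIs in the highest cell outside and 15.0 in the lowest cell inside. The median was 29.3 in the high set, whose highest cell reached 117, and 5.93 in the low set, where 9 cells had no UMI of either gene. There were 51 cells within 20% of the cut, so the sets are ranges of a continuous measure and not discrete cell types.

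Gzmb in the high set stood at 1579, 1557, 1606, 1529 and 1931 counts per 1000000 UMIs (CPM) in gonadotropin mice 1 to 5. Untreated mice 1 to 5 had Gzmb at 1589, 1429.7, 2543, 1373 and 1728 CPM. Prf1 in the high set was at 1832, 1574, 1159, 1775 and 1576 CPM in gonadotropin mice and at 2119, 1616, 1739, 1678 and 2172 CPM in untreated mice. Their height in every mouse and the overlap of the groups follow in part from the common cut and are not read as results. Summed over all cells, Gzmb was at 1634 CPM in the high set, 156 in the low set and 890.1 in the chemokine-high cells that had been removed. Prf1 was at 1739, 466 and 1603 CPM in the same 3 sets, so the chemokine-high cells were close to the high set in Prf1 and between the sets in Gzmb.

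**Figure D1:**
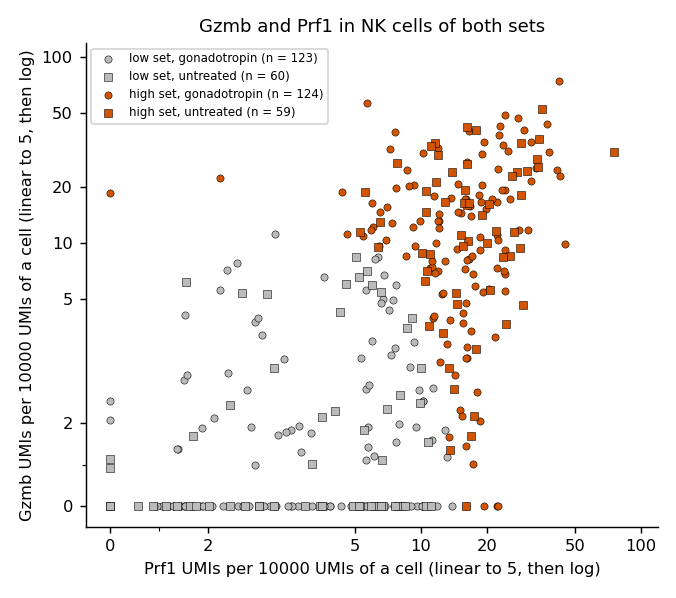
Prf1 (x axis) and Gzmb (y axis) UMIs per 10000 UMIs in each of the 366 NK cells of both sets, on axes linear to 5 and logarithmic above; grey points are the low set, orange points the high set, circles gonadotropin and squares untreated cells. The 183 cells of the high set lie above a cut at a summed level of 15.0, and low cells crowd along the line of no Gzmb.

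Single cells of the high set mixed the 2 transcripts in different proportions. Gzmb was at 0 in 5 of the 183 cells and Prf1 in 1 of them, against 97 and 13 of 183 in the low set. In 70 high cells Gzmb had more UMIs than Prf1. The largest count in one cell was 73 UMIs for Gzmb and 70 for Prf1. As a measure of transcripts free in the droplets, B cells, which should lack both, showed Gzmb in 0.0998% of 1002 gonadotropin and 0.153% of 1311 untreated cells, and Prf1 in 1.10% and 0.686%. Median depth was 6512 UMIs in gonadotropin and 5947 in untreated high cells, and 6185.5 and 7106 in those B cells.

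To read each gene apart from its own part in the choice, the 366 cells were also split by the other gene alone. Gzmb averaged 1444 ± 256 CPM in the Prf1-high cells and 346 ± 170 CPM in the Prf1-low cells (mean ± SD, n = 10 mice), higher in 10 of 10 mice (exact two-sided sign-flip permutation test, p = 0.00195, the smallest 10 mice allow). Prf1 averaged 1524 ± 230 CPM in Gzmb-high and 606 ± 142 CPM in Gzmb-low cells, again higher in 10 of 10 mice with the same exact p = 0.00195. The 2 granule transcripts therefore varied together between cells of the same mouse.

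The NK label held against its markers. Besides the receptors used for the choice, Klrk1 (NKG2D) averaged 1175 ± 198 CPM in the high set, Klrd1 (CD94) 1039 ± 238, the signalling adaptor Tyrobp (DAP12) 2608 ± 276 and the granule membrane protein Nkg7 2948 ± 453 (SD, n = 10 mice). Cd4, Cd8a, Cd8b1 and Cd5 were at 0 in all 183 cells, and Cd3d, Cd3e and Cd3g were at 0 by the rule. The list of 12 T cell genes summed to 596 UMIs, from the 5 others, Trac, Trbc1, Trbc2, Cd6 and Lat, against 835 UMIs in the low set. The B cell list of 10 genes summed to 88 UMIs, the list of 12 myeloid genes to 178 and the list of 6 neutrophil genes to 3. In the low set these lists summed to 168, 207 and 5 UMIs. The B cell list holds Cd79a and Ms4a1, which the rule capped at 1 UMI together in a cell. Its sums were therefore limited in part by the choice of cells. Cd79a and Ms4a1 had 9 and 2 UMIs in the high set and 8 and 2 in the low set. Tnfsf10, Itga1, Il7r and the other genes of a list of 13 for tissue-resident ILC1-type cells summed to 158 UMIs, against 678 in the low set.

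The high set was then compared with the low set of the same mice, asking which other transcripts go with the Gzmb and Prf1 level. UMIs were summed per mouse and set and fitted with edgeR's quasi-likelihood test with the mouse as a block, leaving out the 20 genes of the rule. Of 2235 genes tested, 190 were higher in the high set (8.5%) and 321 lower (14.4%) at a Benjamini-Hochberg adjusted p below 0.05. DESeq2 called 131 higher and 208 lower, and without gonadotropin mouse 4 edgeR called 160 higher and 212 lower. Cells of the high set were slightly shallower, with a median of 6327 UMIs and 2659 genes against 7015 UMIs and 2809 genes. All adjusted p-values for the sets below come from this fit over all genes, unless a fit without a filter on low counts is named.

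Among granule contents other than the split genes, 5 of 8 tested were higher in the high set, where 8.5% of all genes were higher. Gzma, which encodes granzyme A, lies at chr13:113093824-113100981 and was the most abundant granzyme. It was at 12524, 12165, 11286, 13042 and 14045 CPM in gonadotropin mice 1 to 5 and at 14090.0, 13460.0, 15872, 16853 and 11284 CPM in untreated mice. The low set of the same mice had Gzma at 6806, 4350.3, 3929.8, 5966 and 5026 CPM, and 5620.5, 5879, 6256, 5517 and 7291 CPM. The 2 ranges did not overlap, and the log2 change was 1.23 ± 0.08 (SE, edgeR adjusted p = 1.44e-16). Gzma was named as a marker of these cells with earlier results of the same data known, as were Serpinb9 and Klra9, so their differences are no independent evidence. The chemokine-high cells removed earlier, pooled, had Gzma at 8922 CPM, between the sets, and Klra9 at 760 CPM, within the range of the high set. Their Serpinb9 was at 714 CPM, above every mouse of the high set.

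The list holds 18 granule genes, of which 10 were not tested in this fit, and none was lower. Besides Gzma the higher genes were the mast cell chymase gene Cma1 (log2 change 0.96 ± 0.19), the cystatin gene Cst7, whose product restrains granule cathepsins (0.75 ± 0.19), Nkg7 (0.56 ± 0.08) and cathepsin D, Ctsd (0.37 ± 0.11), each higher in 10 of 10 mice. Cathepsin W, Ctsw, was at a log2 change of 0.04 ± 0.12 and did not pass (edgeR adjusted p = 0.846). The granule proteoglycan gene Srgn and the granzyme-processing protease gene Ctsc did not pass either. Without a filter on low counts 4 of 12 genes tested from the list were higher and none lower, where 1.14% of all genes were higher. Of these 12, 6 were above 0 and the median log2 change was 0.02. Ctsd did not pass in that fit (edgeR adjusted p = 0.0565).

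Serpinb9 encodes an inhibitor of granzyme B that shields the killer cell from its own protease. It stood at 411, 376, 484, 457 and 542 CPM in gonadotropin and 583, 406, 542, 648 and 452 CPM in untreated mice of the high set. In the low set it ran from 112 to 370.4 CPM over the 10 mice, below every value of the high set. The log2 change was 1.08 ± 0.15 (edgeR adjusted p = 4.81e-07). Serpinb6b, another member of that inhibitor family, was at 0.26 ± 0.15 and did not pass (adjusted p = 0.215). The near relative Serpinb9b had too few counts for the filtered fit and was higher without a filter, by 2.17 ± 0.25 in log2, in 9 of 10 mice. Reads of the closely related Serpinb9 genes could be split between copies, so these values are uncertain.

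Genes that move and release granules went in both directions. Of 7 tested members of a list of 13, 3 were higher and 2 lower, with a list median of 0.07 against -0.01 over all genes tested. Over all genes 8.5% were higher and 14.4% lower. Coro1a, an actin regulator, and the Rab27-binding Sytl2 and Sytl3 were higher by 0.35 to 0.50 in log2. Lyst, the lysosomal trafficking regulator, was lower by a log2 change of -1.24 ± 0.21 (edgeR adjusted p = 1.14e-05), in 9 of 10 mice. Rab27a, which docks granules at the membrane, was at -0.57 ± 0.20 with an adjusted p of 0.0366, and that call was lost on leaving out any of gonadotropin mice 3, 4 and 5 or untreated mice 1, 3, 4 and 5. Sytl2 and Sytl3 did not pass when cells were thinned before the split. The death ligand Fasl was at 0.42 ± 0.16 and did not pass (adjusted p = 0.0601).

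**Figure D2:**
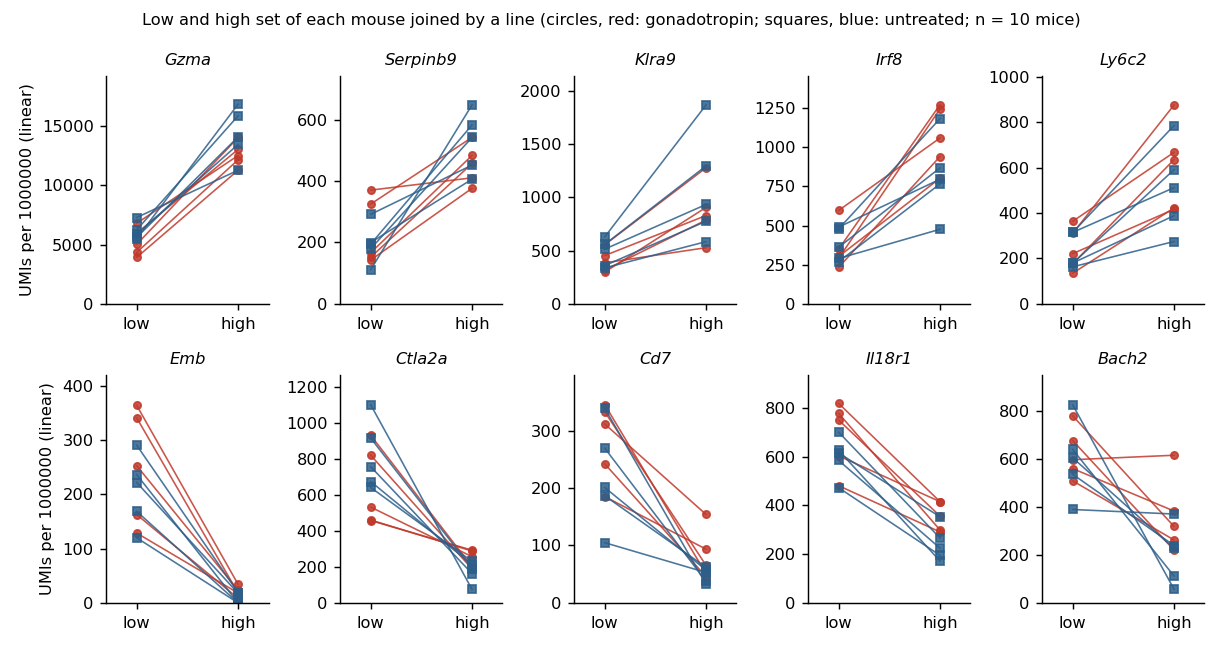
Level of 10 transcripts in UMIs per 1000000 (linear axes starting at 0), with the low and the high set of each mouse joined by a line; red circles are the 5 gonadotropin and blue squares the 5 untreated mice. Gzma, Serpinb9, Klra9, Irf8 and Ly6c2 are higher in the high set in 10 of 10 mice, while Emb, Ctla2a, Cd7 and Il18r1 are lower in 10 of 10 and Bach2 in 9 of 10.

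The Ly49 receptors, encoded by the Klra genes, bind MHC class I on other cells, and each NK cell expresses only some of them. Klra9 (chr6:130178626-130194374) was at 528, 907, 830.2, 788 and 1279 CPM in gonadotropin and 777, 934, 1869.5, 1296 and 585 CPM in untreated mice of the high set. The low set ran from 299 to 629 CPM, overlapping the lowest mice of the high set. Within each mouse the high set was the higher of the 2, with a log2 change of 1.05 ± 0.11 (edgeR adjusted p = 1.07e-09). Klra3, listed in the same cluster at chr6:130323289-130337626, was higher by 1.38 ± 0.16, also in 10 of 10 mice. Klra7 and Klra1, at -0.22 ± 0.14 and 0.02 ± 0.26, did not pass. Thus 2 of the 4 Klra genes tested were higher and none lower, where 8.5% of all genes were higher. Klra8 and Klra4 served in the choice of cells and are given without a test: they were at 1181 ± 409 and 1451 ± 503 CPM in the high set and 1202 ± 366 and 1456 ± 338 CPM in the low set. Other genes of the choice, also untested, were less level. Eomes was at 203 against 297 CPM, lower in 8 of 10 mice. Klrb1c was at 1373 against 903 CPM, Ncr1 at 1373 against 988, Klre1 at 1087 against 933 and Itga2 at 641 against 549. These were higher in 10, 9, 8 and 7 mice. The Klra genes are near-identical copies, and the deposited counting could split their reads.

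To set depth aside, each cell was thinned to 2000 UMIs, which left out 1 low cell. Klra9 was then detected in 59.0% of high and 35.7% of low cells, and before thinning in 74.3% and 51.4%. Klra3 was detected in 39.3% and 21.4% after thinning, and in 47.0% and 28.4% before. For Klra7 the thinned shares were 41.5% and 41.8%, and for Klra1 14.2% and 15.4%. B cells showed any of these 4 in at most 0.130% of thinned cells.

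Other receptors moved in both directions. Of 8 NKG2 and NKR-P1 genes tested, Klrb1a was higher by 0.64 ± 0.15 and Klrb1b lower by -0.69 ± 0.17 in log2, and Klrk1, Klrd1 and Klrc1 were among those that did not pass. Slamf7, a receptor of the SLAM family that activates NK cells, was higher by 0.83 ± 0.17 with no overlap between sets (206 ± 49.6 against 109 ± 29.0 CPM). At 410 CPM, it was higher still in the pooled chemokine-high cells. Its relatives Cd48 and Cd244a were higher by 0.60 ± 0.13 and 0.59 ± 0.14, while the adhesion receptor Cd2 was lower by -0.64 ± 0.14 in 10 of 10 mice. Cd48 and Cd244a were at 326 and 249 CPM in the chemokine-high cells, below their high-set means of 423 and 400 CPM. Among signalling genes, the Fc receptor gamma chain Fcer1g was higher by 0.42 ± 0.08 in 10 of 10 mice and the phospholipase gene Plcg2 by 0.90 ± 0.20 in 9 of 10. Of the 14 signalling genes tested, 4 were higher and 1 lower. Over all genes 8.5% were higher and 14.4% lower.

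Genes of the mature NK stage were higher in the high set and genes of the immature stage lower. Of 13 mature-stage genes tested from a list of 18, 11 were higher and none lower, with a median log2 change of 0.49, where 8.5% of all genes were higher. Irf8, a transcription factor of NK and myeloid cells, was at 1059.5, 941, 803, 1272 and 1245 CPM in gonadotropin and 1183, 796, 767, 477 and 869 CPM in untreated mice of the high set. Each of these exceeded the low set of the same mouse, which ran from 234 to 597 CPM, and the log2 change was 1.34 ± 0.13 (edgeR adjusted p = 6.42e-11). In the pooled chemokine-high cells Irf8 was at 1452 CPM, above every mouse of the high set, so its height is not particular to that set. Ly6c2, a surface protein of mature NK cells, rose by 1.21 ± 0.13, and Zeb2, a repressor required for terminal NK maturation, by 0.74 ± 0.10, each in 10 of 10 mice. The chemokine gene Ccl5 rose by 0.49 ± 0.07, from 7971 ± 1072 to 11397 ± 1453 CPM, and the chemokine-high cells had 13298 CPM. Those cells stood between the set means in Ly6c2, at 491 CPM, and in Zeb2, at 1052 CPM. S1pr5, an exit receptor for NK cells, was at 0.45 ± 0.19 and did not pass (adjusted p = 0.0745). This list shares Gzma and Cma1 with the granule list, and Irf8, Zeb2, Klf2 and Tbx21 with the list of transcription factors below. It was drawn up with earlier results of these data known, so its count is no independent evidence.

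Cx3cr1 and Klrg1, markers of late maturation, had too few counts for the filtered fit. Without a filter on low counts 14632 genes were tested, of which 167 were higher (1.14%) and 335 lower (2.29%). Cx3cr1 was then higher by 3.37 ± 0.35 (103 ± 47.7 against 7.28 ± 10.8 CPM, edgeR adjusted p = 3.86e-19) and Klrg1 by 1.57 ± 0.22 (170 ± 55.8 against 58.8 ± 35.1 CPM, adjusted p = 1.88e-10), each in 10 of 10 mice. After thinning, Cx3cr1 was detected in 11.5% of high and 2.20% of low cells against 0.478% of B cells, and Klrg1 in 24.0% and 9.34% against 0%.

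Emb, which encodes the adhesion protein embigin, showed the largest fall among genes of the filtered fit whose mean log2 CPM reached 6 or more. In the high set it was at 18.1, 34.2, 18.2, 23.1 and 8.47 CPM in gonadotropin mice and at 0, 0, 0, 19.1 and 17.7 CPM in untreated mice. In the low set it was at 129, 364, 341, 253 and 163 CPM, and 119.9, 236, 168, 290.4 and 222 CPM. The sets did not overlap, and the log2 change was -3.75 ± 0.26 (edgeR adjusted p = 4.9e-15). Ctla2a, a cysteine protease inhibitor gene, ran from 74.8 to 293 CPM in the high set and from 458 to 1101 CPM in the low set, a log2 change of -1.69 ± 0.17. Cd7, an immunoglobulin superfamily receptor of early lymphoid cells, was lower by -1.98 ± 0.20, in 10 of 10 mice. In the pooled chemokine-high cells Emb was at 34.8 CPM, just above the highest mouse of the high set. Ctla2a was at 239 CPM there, within the range of the high set. The low levels of Emb and Ctla2a are thus not particular to the high set. Cd7 was at 173 CPM in the chemokine-high cells, between the set means of 65.1 and 252 CPM.

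Of 5 immature-stage genes tested in the filtered fit, 4 were lower and none higher, where 14.4% of all genes were lower. Without the filter 13 of 15 were lower and none higher, where 2.29% of all genes were lower. This list too was drawn up with earlier results of these data known, so its counts are no independent evidence. In the fit without the filter Tcf7, a factor of early NK development, was lower by -2.89 ± 0.32 in 10 of 10 mice. Cd27 was lower by -1.76 ± 0.29 in 9 of 10, lymphotoxin beta (Ltb) by -4.13 ± 0.38 in 9 of 10 and the interleukin-7 receptor gene Il7r by -4.24 ± 0.47 in 8 of 10. In thinned cells Tcf7 was detected in 1.64% of high and 20.3% of low cells, against 0.304% of B cells. Cd27 was in 3.83% and 17.6% against 2.13%, and Il7r in 0.546% and 8.24% against 0.130%. Ltb was in 1.09% of high and 16.5% of low cells but in 63.7% of B cells, and Emb in 3.83% and 27.5% against 5.91%. The part of B cell transcripts in the falls of Ltb and Emb was not tested. Of the ILC1-type list, 4 of 11 genes tested without the filter were lower and none higher, where 2.29% of all genes were lower. Itga1 (CD49a), which marks resident cells, was at 7.27 ± 12.6 against 48.6 ± 84.0 CPM, lower in 6 of 10 mice. The part of ILC1-type cells in the differences between sets was not tested.

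**Figure D3:**
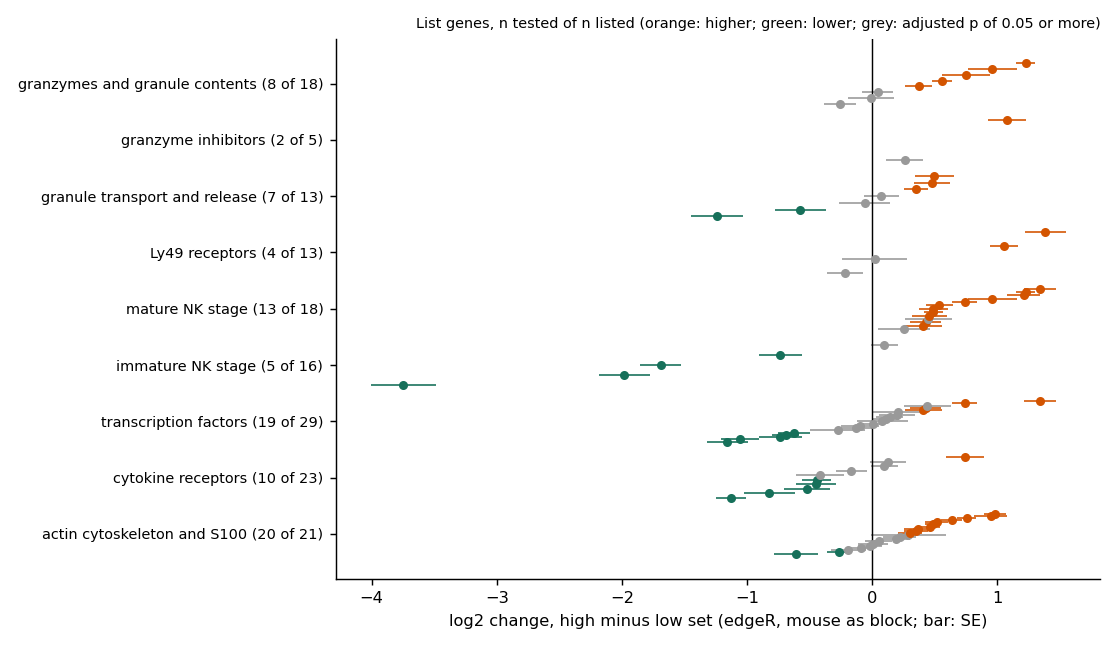
log2 change from low to high set (x axis; bars are the SE of the edgeR fit with mouse as block, n = 10 mice) for tested genes of 9 lists; orange genes were higher and green genes lower at an adjusted p below 0.05, grey genes did not pass. 11 of 13 mature-stage genes lie on the right as called genes, and 4 of 5 immature-stage genes on the left, with Emb at -3.75. The lists were chosen with earlier results of these data known.

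Transcription factors followed no single direction. Of 19 tested, 4 were higher (Irf8, Zeb2, Klf2 and Tbx21) and 5 lower (Bach2, Tox, Lef1, Stat4 and Ets1). Over all genes 8.5% were higher and 14.4% lower. The 4 higher factors also stand in the mature-stage list and Lef1 in the immature-stage list, so these genes are counted in both. Bach2, a repressor that holds back effector differentiation, fell from 612 ± 128 to 281 ± 156 CPM, with a log2 change of -1.16 ± 0.16 in 9 of 10 mice. Tox, needed early in NK development, was lower by -1.06 ± 0.15, and Stat4, which relays interleukin-12 signals, by -0.69 ± 0.11 in 10 of 10 mice. Klf2 was higher by 0.43 ± 0.12. Tbx21 (T-bet) was at 0.41 ± 0.15 with an adjusted p of 0.0384, a call lost on leaving out gonadotropin mouse 3 or any of untreated mice 1, 2, 3 and 5. Lef1 did not pass when cells were thinned before the split. Ikzf2 (Helios), counted without the filter, was lower by -2.01 ± 0.35.

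Of 10 cytokine receptor genes tested, 5 were lower and 1 higher, with a median log2 change of -0.43. Over all genes 14.4% were lower and 8.5% higher. Il18r1, the ligand-binding chain of the interleukin-18 receptor, was at 299, 291, 356, 415 and 415 CPM in gonadotropin and 353, 195, 224, 172 and 266 CPM in untreated mice of the high set. The low set ran from 472 to 818 CPM and did not overlap with it, with a log2 change of -1.13 ± 0.12 (edgeR adjusted p = 1.33e-09). Its partner chain Il18rap was at -0.17 ± 0.13 and did not pass (adjusted p = 0.37). Il12rb2, a chain of the interleukin-12 receptor, was the gene of this list that was higher, by 0.74 ± 0.15 in 9 of 10 mice. Tgfbr2, a receptor chain for transforming growth factor beta, was lower by -0.82 ± 0.20, and Il2rb, which NK cells need to sense interleukin-15, was at 0.10 ± 0.11 without passing.

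Homing and adhesion genes also split. The chemokine receptor gene Ccr2 was lower by -1.31 ± 0.17, the hyaluronan receptor gene Cd44 by -1.25 ± 0.18 and the integrin gene Itgb1 by -0.52 ± 0.10, each in 10 of 10 mice. The integrin chain Itgb2 was higher by 0.49 ± 0.12 in 9 of 10. Of the cytoskeleton and S100 genes, 10 of 20 tested were higher and 2 lower, where 8.5% of all genes were higher and 14.4% lower. Galectin-1, Lgals1, rose by 0.98 ± 0.09 from 1149.8 ± 205 to 2375 ± 464 CPM, S100a6 by 0.95 ± 0.13 and beta actin, Actb, by 0.75 ± 0.07. Of 10 early response genes tested, Jun, Fos and Btg2 were lower, by -1.02 ± 0.16, -0.89 ± 0.23 and -0.61 ± 0.12, and Dusp2 was higher by 0.38 ± 0.14 (adjusted p = 0.0366), a call lost in 11 of 17 refits. Those refits include leaving out gonadotropin mouse 1, 4 or 5 or untreated mouse 3 or 5, and without the filter none of the list was higher. Jun did not pass when cells were thinned before the split.

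Of the heat shock and dissociation list, 4 of 6 genes tested were higher and none lower, where 8.5% of all genes were higher, among them the mitochondrial chaperone gene Hspd1 at 0.70 ± 0.16. Of the glycolysis list, 3 of 6 were higher, namely the phosphofructokinase gene Pfkp at 0.66 ± 0.17, Eno1 and Pkm. Pkm lost its call in 8 of 17 refits (on leaving out gonadotropin mouse 1, 3, 4 or 5 or untreated mouse 1 among them) and Eno1 in 5 (gonadotropin mouse 1 among them). Without the filter 2 of 10 genes of the stress list and 1 of 14 of the glycolysis list were higher, where 1.14% of all genes were. Hspa8, also counted as higher in the stress list, lost its call in 7 refits, including those without any 1 of untreated mice 1 to 4. No type I interferon response gene had enough counts for the filtered fit, and 0 of 19 were called without the filter in edgeR. Of the T cell list, the receptor constant chains Trbc1 and Trbc2, which NK cells also transcribe, were lower by -0.69 and -0.54 in 9 of 10 mice each. The part of stress transcripts in the differences between sets was not tested.

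Further genes with the largest differences belonged to none of these lists. Morrbid, a long noncoding RNA that restrains the pro-death gene Bcl2l11, was higher by 1.81 ± 0.23 (186 ± 84.4 against 43.4 ± 27.0 CPM) in 10 of 10 mice. Tmem163, a zinc transporter gene, was higher by 1.46 ± 0.15 in 9 of 10 mice, and Fgl2, a fibrinogen-like protein gene, by 1.22 ± 0.17 with no overlap between sets. The other named rises were Cdk14, Ppp1r14b and Spata5, by 1.22 to 1.32. Aff3, a nuclear elongation-complex relative, fell by 2.31 on the log2 scale, from 420.2 ± 154 to 76.5 ± 34.9 CPM in 10 of 10 mice. St6galnac3, a sialyltransferase gene, was lower by -2.35 ± 0.28, Angpt1 by -1.88 ± 0.23, Fgf13 by -1.88 ± 0.22 and Ssbp2 by -1.87 ± 0.21. Ldlrad4 and Smad7, inhibitors of transforming growth factor beta signalling, were lower by -1.65 ± 0.23 and -1.37 ± 0.22 in 10 of 10 mice, and Ly6e by -1.38 ± 0.18 in 9 of 10.

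Of the cell division list, 3 of 4 genes tested were higher in the high set and none lower: Tuba1b, a tubulin gene (0.99 ± 0.26), Tubb5 and H2afz. Over all genes of that fit 8.5% were higher. Without the filter 2 of 18 were called, both higher, where 1.14% of all genes were higher. Of the 18, 17 were above 0 with a median log2 change of 0.79. Mki67, Top2a, Cdk1, Birc5, Rrm2, Ccna2, Ccnb1 and Ccnb2 summed to 124 UMIs in the 124 gonadotropin cells of the high set, of which 90 lay in 1 cell, and to 9 UMIs in the 59 untreated cells. At least 3 such UMIs were seen in 4 gonadotropin cells, from 3 mice, and in none of the 59 untreated cells.

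The share of high cells among retained leukocytes was compared between treatments, the replicate being the mouse. It was 7.82%, 1.85%, 5.86%, 4.47% and 5.22% in gonadotropin mice 1 to 5. It was 1.78%, 2.46%, 2.83%, 2.70% and 2.34% in untreated mice 1 to 5. Gonadotropin mouse 2 fell inside the untreated range and the other 4 lay above it. The means were 5.04% ± 2.17 and 2.42% ± 0.41 (SD, n = 5 mice each), and an exact two-sided permutation test gave p = 0.0397 and 0.139 after adjustment over 7 shares and levels, so the difference did not pass. Without gonadotropin mouse 2 the difference grew from 2.62 to 3.42 percentage points and passed, with an adjusted exact permutation p of 0.0278. Dropping that mouse, which lay inside the untreated range, leaves no overlap between the groups. On leaving out any other mouse the difference did not pass, at adjusted exact permutation p-values of 0.130 to 0.25. Pooled over mice, the shares were 5.12% of 2423 cells (95% Clopper-Pearson interval 4.27 to 6.07) and 2.36% of 2495 (1.80 to 3.04), intervals that cover counting error only.

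The low set was at 4.97% ± 1.20 against 2.49% ± 0.95 (exact permutation p = 0.0238, adjusted 0.139, n = 5 mice each). Without gonadotropin mouse 2 this difference grew from 2.48 to 2.93 percentage points, with an adjusted p of 0.0278. On leaving out any other mouse it did not pass, at adjusted exact permutation p-values of 0.0833 to 0.25. Among the 366 NK cells of both sets, the high set made up 62.9%, 36.8%, 48.6%, 43.0% and 51.4% in gonadotropin and 50.0%, 43.2%, 42.9%, 57.1% and 58.6% in untreated mice. The groups overlapped throughout, at 48.5% ± 9.75 and 50.4% ± 7.44 (exact permutation p = 0.698, adjusted 0.778, n = 5 mice each). Over the 366 cells of both sets, Gzmb was at 859.6 ± 146 and 887 ± 175 CPM (exact permutation p = 0.778, n = 5 mice each) and Prf1 at 993 ± 229 and 1131 ± 221 CPM (p = 0.349). Neither difference passed. That of Prf1 stayed negative on leaving out any 1 mouse, from -227 to -52.8 CPM.

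**Figure D4:**
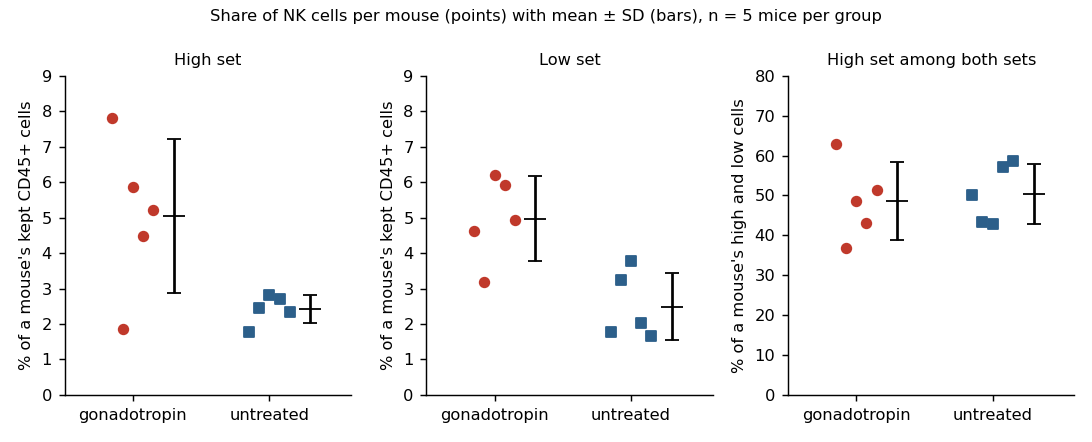
Share of each mouse's retained CD45+ cells in the high set (left) and low set (middle), and share of the high set among high and low cells (right), in percent; points are mice, bars the mean ± SD with n = 5 per group. 4 of 5 gonadotropin mice lie above the untreated range for the high set and mouse 2, at 1.85%, lies inside it, whereas the right panel overlaps.

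Inside the high set, gonadotropin and untreated mice were compared gene by gene. None of 2309 genes passed an adjusted p of 0.05 with edgeR (0% higher and 0% lower), while 203 had an unadjusted p below 0.05. DESeq2 also called 0, with 138 below an unadjusted 0.05. Unlike the fit between sets, the edgeR fit here kept 14 genes of the rule, which helped to choose the cells. Ccl3 was 1 of the 203, so that count is not free of the choice. The marker levels overlapped between groups: Gzma was at 12613 ± 1025 against 14312 ± 2170 CPM, Klra9 at 866 ± 271 against 1092 ± 507 and Serpinb9 at 454 ± 64.3 against 526 ± 97.8 (SD, n = 5 mice each).

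The smallest p of all was that of the gene model Gm42418 (adjusted p = 0.248 by edgeR), which the rule for naming genes leaves out. The 5 smallest p-values per direction among the genes that the rule for naming allows are given without a call. Pik3r5, a regulatory subunit of phosphoinositide 3-kinase gamma, was at 220.4, 205, 192, 192 and 195 CPM in gonadotropin mice and at 124, 97.5, 56.1, 76.3 and 124 CPM in untreated mice. The groups did not overlap, yet the log2 change of 0.99 ± 0.25 had an adjusted p of 0.318 by edgeR. Exoc4, Mlxip, Tut4 and Grap2 stood at 0.60 to 1.06 with the same adjusted p. On the other side the actin-binding Pfn1 was at -0.41 ± 0.11, the chaperone Hspa8 at -0.58 ± 0.16, Klra1 at -1.18 ± 0.35 and Limd2 at -0.92 ± 0.28, with adjusted p-values of 0.318 to 0.339. Ccl3 was among the smallest p-values too, but its share helped to choose the cells, so no test of it is given. Without untreated mouse 5, 3 genes passed as lower, namely S100a6, Klra1 and Hspa8. 1 gene passed as higher without gonadotropin mouse 1, untreated mouse 2 or untreated mouse 4.

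For Klra1 the difference lay in a pair of mice. It was at 84.5, 137, 119, 188 and 186 CPM in gonadotropin mice and at 88.3, 625, 542, 95.3 and 115 CPM in untreated mice. Only untreated mice 2 and 3 were high, and the other 3 lay within the gonadotropin range. The 5 listed genes of red blood cells summed to 18.2 to 51.3 CPM in gonadotropin and 0 to 17.7 CPM in untreated high cells, a difference that was not tested for its part in any gene. Whether the treatment difference itself differed between high and low set was tested as an interaction: 0 of 2931 genes passed with edgeR (0% in either direction), 96 had an unadjusted p below 0.05, and DESeq2 called 0, with 30 below it. Klra1 passed this test without untreated mouse 5.

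**Figure D5:**
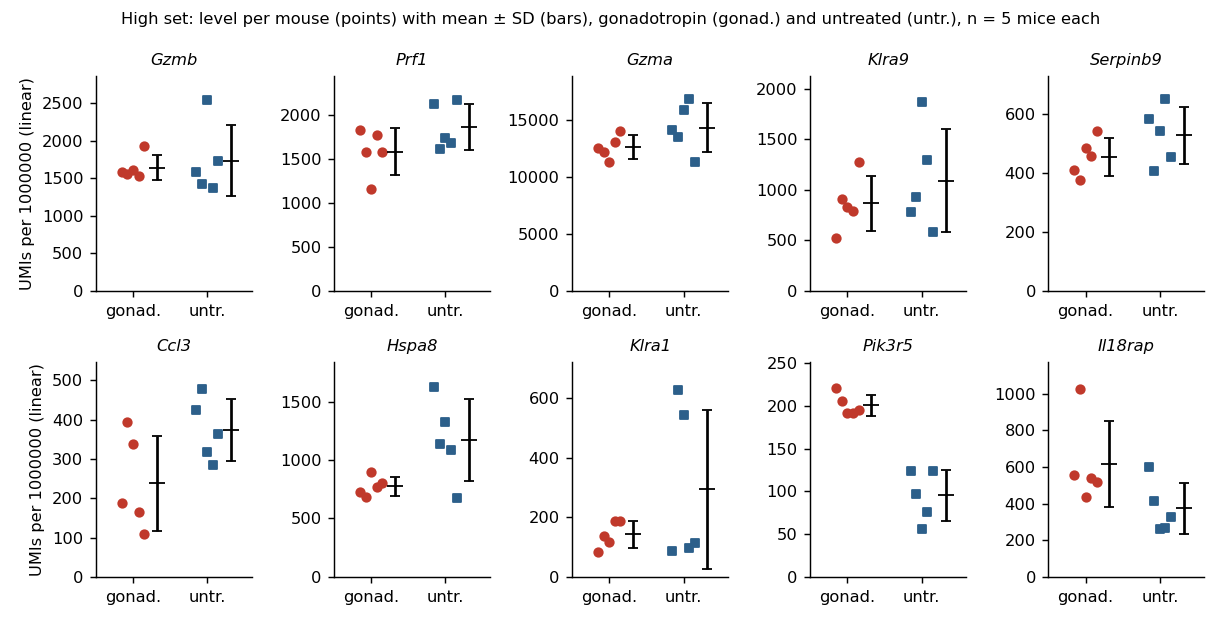
Level of 10 transcripts in the high set in UMIs per 1000000 (linear axes starting at 0) in gonadotropin (red circles) and untreated mice (blue squares); bars are the mean ± SD, n = 5 mice each. Gzma, Klra9 and Serpinb9 overlap between groups, Pik3r5 does not, and the high Klra1 values are those of 2 untreated mice; Gzmb, Prf1 and Ccl3, which the choice of cells used, are shown as levels only.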

How the data were processed

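The authors deposited 1 matrix of raw UMI counts (32285 genes) with cell metadata that gives each cell's hashtag call and mouse. Per the submitters' processing notes, bcl2fastq, Cell Ranger and Seurat were used with genome mm10, in versions not given in the sources used here. The 3' chemistry tags each transcript once, whatever its length. The deposited doublet calls were used and no caller was run, so doublets within a mouse remain. 4 barcode sequences occurred in both libraries, none among the high cells. The members and gene lists were chosen with earlier results of these data known.

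UMI counts were summed per mouse and set (44769 to 348490 UMIs) and tested with edgeR 4.0.16 (TMM, filterByExpr, quasi-likelihood F test, Benjamini-Hochberg), with SE as the log2 change over the root of F; DESeq2 1.42.0 was an alternative. CPM are UMIs per 1000000 UMIs of the same cells, without TMM. Single values were tested by exact permutation over mice (scipy 1.17.1), whose smallest p for 5 against 5 is 0.00794. Code was tested on simulated data. Named genes were the 12 largest changes per direction whose mean log2 CPM reached 6 or more, in at least 8 of 10 mice, or the 5 smallest p where none passed, besides list genes. Pairing in the high against low fit comes from the mouse. Hashtag negatives and doublets were left out.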

Additional observations from a re-analysis of the deposited data

Results flagged for a closer look

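In 82 groups of 5 mice, 1 mouse of the high set stood far from the other 4 in 6 groups, and chance alone gives about 1 in 20. Tut4 was at 584.5 CPM in gonadotropin mouse 5 and near 500 in the others. Gzmb was at 1931 CPM in gonadotropin mouse 5, above the other gonadotropin mice. Gzmb helped to choose the cells, so this flag, 1 of the 6, is not read as a result. Il18rap was at 1027 CPM in gonadotropin mouse 2, which gave 7 cells. Klra7 was at 338 CPM in gonadotropin mouse 3, below the other gonadotropin mice. Ccl5 was at 14620.0 CPM and Klra3 at 936 CPM in untreated mouse 1, which gave 9 cells.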

How the results depend on the processing

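The 24 named genes that differed between sets kept their direction and stayed past the threshold in all 393 refits in which they were tested. Of all 1487 refits of single genes between sets, 1369 gave the same call, 87 lost it, 16 gained it and 15 moved without a call. Without the replicate block 500 genes were called, 482 of them among the 511 of the blocked fit. DESeq2 called 208 lower genes in place of 321, and 131 higher in place of 190. Leaving out 1 mouse gave 212 to 280 lower and 160 to 199 higher genes; the 212 came without gonadotropin mouse 4, when fewer genes were tested. For gonadotropin against untreated, 1 gene was higher after thinning, and without a filter on low counts 5 were higher and 2 lower, where 0 had passed. Leaving out 1 mouse gave 0 to 1 higher (1 without gonadotropin mouse 1, untreated mouse 2 or untreated mouse 4) and 0 to 3 lower (3 without untreated mouse 5: S100a6, Klra1 and Hspa8). For the interaction 1 gene, Klra1, passed without the filter and without untreated mouse 5 (0 to 1 over the mice). The high share of high and low cells reversed to 3.46 points after thinning and ran from -5.43 to 1.08 without 1 mouse. The Gzmb difference over the 366 NK cells of both sets ran from -82.8 to 22.7 CPM and that of Prf1 from -227 to -52.8 CPM. The high share of kept cells ran from 1.93 to 3.42 points and the low share from 2.17 to 2.93. The cause was not tested. No paired analysis was possible between treatments because mouse numbers only name animals. Of 89 genes named or listed, 23 lost their call under at least 1 setting, most often Dusp2 and Rab27a (11 each) and Tbx21 (9). Between 6 and 49 cells per mouse and set limit the precision of every value.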
